A study of Schizosaccharomyces pombe with 8 samples.

Results

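The 34 genes described here encode building blocks of the nuclear pore and the karyopherins, the receptors that carry cargo through it, in the fission yeast Schizosaccharomyces pombe. They were chosen by name: every gene whose symbol begins with nup or kap and a number, together with cut15, imp1, rae1, crm1, npp106, pom152 and mex67. Of 2899 genes with a single name on the array, 34 met this rule, and each had 1 probe set. The rule also named nic96, which matched no named probe set and is not analysed here. The tested strain is deficient in zfs1, the gene of a tandem CCCH zinc finger protein that binds mRNA and destabilises it, and it was set against a wild-type strain. Each strain gave 4 biological replicates, called cultures 1 to 4 here, grown at 30 °C to an A600 of 1.0, in Edinburgh minimal medium with adenine, histidine, leucine, lysine and uracil. Total RNA of each culture went to 1 Affymetrix array, giving 4 zfs1-deficient and 4 wild-type arrays. The sample titles mark the strain as a zfs1 deletion; the extent of the deletion, the mating type and other markers of both strains, and whether the replicates were inoculated separately, are not given in the sources used here.

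The nuclear pore is a ring of nucleoporins embedded in the nuclear envelope, built of outer and inner ring scaffolds around a channel filled with phenylalanine-glycine (FG) repeat proteins. Import receptors bind cargo in the cytoplasm and release it in the nucleus on meeting the GTPase Ran in its GTP form, whereas export receptors bind cargo together with Ran-GTP. Most mRNA leaves by a separate route that does not use karyopherins, and in fission yeast Rae1 is an essential factor of that route. Fission yeast keeps its nuclear envelope closed through mitosis, so pores and receptors work through the whole cell cycle.

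Signals are given on the log2 scale, where 1 unit is a 2-fold change, and differences are zfs1-deficient minus wild type. Levels of different genes cannot be set against each other on an array, so each value is read only against the same gene on other arrays. The zfs1 transcript (SPBC1718.07C) itself lay at 4.18, 4.33, 4.55 and 3.51 in the zfs1-deficient cultures 1 to 4, against 10.49, 10.54, 10.39 and 10.62 in the wild-type cultures 1 to 4, so no array went against its label. On each deficient array it lay below the brightest of the 17 reporter controls, whose signal stands here for background. Array medians over all yeast probe sets lay between 9.61 and 9.64. All 34 pore and karyopherin genes were well above background, each at least 2.81 above the brightest control of its array. No array was left out, and 34 of 34 genes had a value on every array.

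Between the strains, 1 of the 34 genes passed the test, the export receptor gene crm1, which rose (limma, Benjamini-Hochberg adjusted p under 0.05 over 4969 probe sets). Of all probe sets tested, 3.56% were called higher and 2.21% lower without zfs1, so 1 of 34 higher (2.94%) and 0 of 34 lower are shares near or below that background. At an unadjusted p under 0.05, limma gave 2 genes higher (5.88%, against 10.1% of all probe sets) and 1 lower (2.94%, against 10.5%). The median difference of the 34 genes was -0.0079, against -0.013 for all probe sets tested, and 19 of the 34 differed by less than 0.1. No member reached 2-fold, as 2.84% of all probe sets did, and the 95% interval of the difference lay within 1.5-fold in either direction for 29 of the 34 genes.

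Cultures of the same number deviated together in both strains, most for number 4, although numbers 1 and 3 were not distinct. A second fit took the replicate number as a block, comparing each zfs1-deficient culture with the wild-type culture of its number. The difference of a gene is the same in both fits, but its median standard error over the 34 genes was 0.071 with the block and 0.12 without it. With the block 3 of the 34 genes rose, crm1, kap114 and cut15, and 3 fell, nup45, nup132 and nup146. These shares of 8.82% each stand against 11.3% called higher and 12.8% called lower among all probe sets in the blocked fit, so they are again below the background. By role, those that rose were 3 of 10 transport receptors and those that fell were 3 of 22 nucleoporins. The difference between roles was not tested, and 3 karyopherin genes outside the naming rule, los1, sal3 and mtr10, fell in the same fit. When 1 replicate number was left out of both strains in turn, the blocked call held in 4 of 4 fits for crm1 and in 2 for nup132 (without number 2 and without number 4). It held in 1 for kap114 (without number 4), in 1 each for nup45 and nup146 (without number 2) and in 0 for cut15, and all 6 genes kept their sign.

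**Figure D1:**
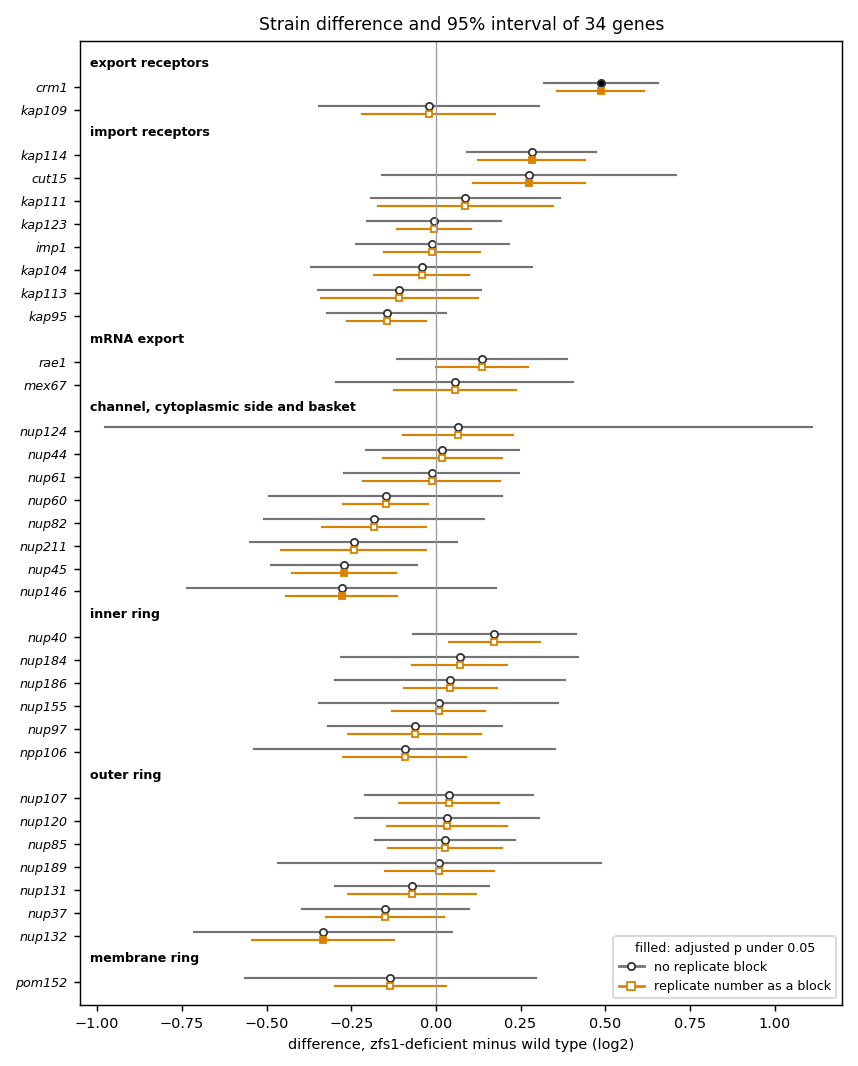
Difference between the strains on the log2 scale (x axis, zfs1-deficient minus wild type) for the 34 genes, grouped by role, with 95% intervals. Circles show the fit without the replicate block and squares the fit with it, and filled symbols passed an adjusted p of 0.05; crm1 is filled in both, and kap114, cut15, nup45, nup146 and nup132 are filled only with the block.

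crm1 (SPAC1805.17) encodes the exportin that carries proteins with a leucine-rich export signal out of the nucleus, among them the fission yeast stress factor Pap1. Its signal was 11.46, 11.30, 11.49 and 11.25 in zfs1-deficient cultures 1 to 4, and 10.91, 10.91, 10.88 and 10.84 in wild-type cultures 1 to 4. The lowest zfs1-deficient culture lay above the highest wild-type culture, and the wild-type cultures were closely alike. crm1 averaged 11.37 ± 0.12 in the deficient strain and 10.89 ± 0.03 in wild type (SD, n = 4 each), a difference of 0.49 ± 0.075 (SE; limma adjusted p = 0.00776), or 1.40-fold with a 95% interval of 1.25 to 1.57. In the blocked fit its adjusted p was 0.00116, and crm1 was higher in 4 of 4 numbered pairs, by 0.55, 0.38, 0.61 and 0.41. With each array left out in turn it passed in 8 of 8 fits, at adjusted p between 0.0062 and 0.0381.

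kap109 (SPBC30B4.05), the other export receptor in the list, is the homologue of the receptor that returns importin alpha to the cytoplasm. Its mean was 10.07 ± 0.25 in zfs1-deficient cultures and 10.09 ± 0.19 in wild-type cultures (SD, n = 4 each). The difference was -0.021 with a 95% interval of -0.35 to 0.30 (limma adjusted p = 0.961), so an effect on kap109 of the size seen for crm1 lies outside that interval.

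Among 8 import receptor genes, 0 passed without the block and 2 rose with it. kap114 (SPAC22H10.03C) encodes an importin beta family receptor that in budding yeast imports the TATA-binding protein and histones. Its signal was 10.29, 10.28, 10.29 and 10.17 in zfs1-deficient cultures 1 to 4, against 9.91, 9.90, 10.07 and 10.02 in wild-type cultures 1 to 4. The strains did not overlap. kap114 differed by 0.28 ± 0.085 (SE, n = 4 per strain; limma adjusted p = 0.0914, and 0.0218 with the replicate block), or 1.22-fold.

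cut15 (SPCC962.03C) encodes an importin alpha, the adaptor that joins a classical nuclear localisation signal to importin beta. Its signal was 9.27, 9.68, 9.25 and 9.95 in zfs1-deficient cultures 1 to 4, against 9.08, 9.39, 8.99 and 9.60 in wild-type cultures 1 to 4. The strains overlapped widely, but within each number the zfs1-deficient culture was higher, by 0.19, 0.29, 0.27 and 0.36. The difference was 0.27 ± 0.19 without the block (SE; limma adjusted p = 0.470) and 0.27 ± 0.072 with it (SE; adjusted p = 0.0282). Cultures 2 and 4 were the high ones in both strains.

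imp1 (SPBC1604.08C), the other importin alpha of fission yeast, averaged 11.15 ± 0.09 in zfs1-deficient cultures and 11.16 ± 0.19 in wild-type cultures (SD, n = 4 each). Its difference was -0.011, with a 95% interval of -0.24 to 0.22 (limma adjusted p = 0.976). The change of cut15 exceeded that of imp1 by 0.29, in 4 of 4 numbered pairs, by 0.11 to 0.50. The pair was chosen after its values were seen, so this is a description with no test.

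kap95 (SPAC1B1.03C), importin beta, was 11.09, 11.14, 11.13 and 10.96 in zfs1-deficient cultures 1 to 4, against 11.24, 11.19, 11.37 and 11.11 in wild-type cultures 1 to 4. It was lower in 4 of 4 numbered pairs while the strains overlapped, and the difference of -0.15 ± 0.079 did not pass (SE; limma adjusted p = 0.334, and 0.0716 with the block). The other 4 receptors had smaller differences than kap95. kap123 (SPBC14F5.03C), which in budding yeast imports ribosomal proteins, differed by -0.0051 with a 95% interval of -0.20 to 0.19. kap104 (SPAC2F3.06C), the transportin, differed by -0.042 (interval -0.37 to 0.29). kap111 (SPAC22G7.02) differed by 0.087 (-0.19 to 0.37) and kap113 (SPCC1322.06) by -0.11 (-0.35 to 0.13), both of the importin beta family. None of the 4 passed (adjusted p from 0.626 to 0.985).

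**Figure D2:**
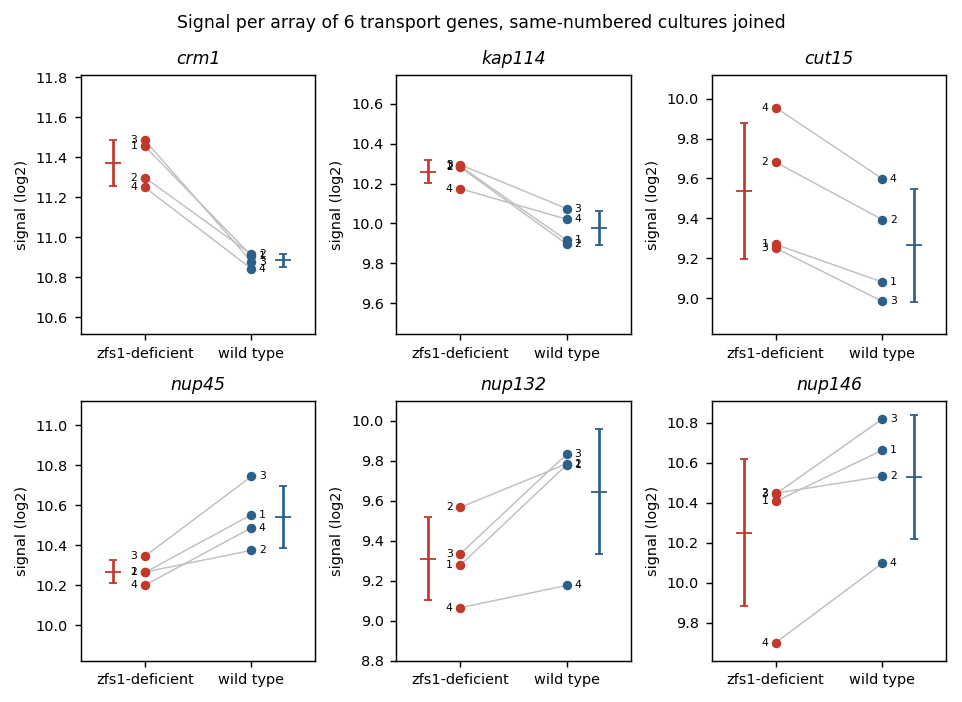
Signal on the log2 scale (y axis, 1.3 units high in every panel) of the 6 genes that passed with the replicate block, in zfs1-deficient cultures (left, red) and wild-type cultures (right, blue). Numbers mark the cultures, grey lines join cultures of the same number, and bars at the sides give the mean and SD of 4 arrays; every line of crm1, kap114 and cut15 falls toward wild type and every line of nup45, nup132 and nup146 climbs.

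The 2 mRNA export genes in the list did not pass in either fit. rae1 (SPBC16A3.05C), whose mutants retain poly(A) RNA in the nucleus, averaged 10.50 ± 0.16 in zfs1-deficient and 10.37 ± 0.15 in wild-type cultures (SD, n = 4 each), and was higher in 4 of 4 numbered pairs by 0.071 to 0.20 (limma adjusted p = 0.547, and 0.126 with the block). mex67 (SPBC1921.03C), the homologue of the main mRNA export receptor of budding yeast, differed by 0.056 with a 95% interval of -0.29 to 0.40 (adjusted p = 0.887).

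Of the 8 nucleoporins of the channel, the cytoplasmic side and the nuclear basket, 6 had differences below 0, as did 18 of all 34 genes. The median of the 8 was -0.17. 0 of the 8 passed without the block and 2 fell with it, nup45 and nup146. nup45 (SPAC22G7.09C) encodes an FG nucleoporin of the central channel. Its signal was 10.26, 10.27, 10.35 and 10.20 in zfs1-deficient cultures 1 to 4, against 10.55, 10.38, 10.74 and 10.49 in wild-type cultures 1 to 4. The strains did not overlap, by the narrow margin between zfs1-deficient culture 3 and wild-type culture 2. The difference was -0.27 ± 0.096 (SE, n = 4 per strain; limma adjusted p = 0.146, and 0.0224 with the block). nup44 (SPBC19G7.15), another channel FG nucleoporin, differed by 0.019 (adjusted p = 0.948).

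nup146 (SPAC23D3.06C) is the homologue of a cytoplasmic FG nucleoporin that in budding yeast docks the last steps of mRNA export. Its signal was 10.41, 10.45, 10.44 and 9.70 in zfs1-deficient cultures 1 to 4, against 10.66, 10.53, 10.82 and 10.10 in wild-type cultures 1 to 4. Culture 4 was low in both strains, and in each number the zfs1-deficient culture was the lower, by 0.26, 0.084, 0.38 and 0.40. The difference was -0.28 ± 0.20 without the block and -0.28 ± 0.071 with it (SE; limma adjusted p = 0.488 and 0.0257). nup82 (SPBC13A2.02), its partner on the cytoplasmic side, was lower in 4 of 4 pairs too, with a difference of -0.18 (adjusted p = 0.531, and 0.0813 with the block).

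The basket genes did not pass. nup211 (SPCC162.08C), the large coiled-coil protein of the basket, was 9.48, 9.51, 9.53 and 9.34 in zfs1-deficient cultures 1 to 4, against 9.80, 9.55, 10.04 and 9.45 in wild-type cultures 1 to 4. Wild-type culture 4 lay within the range of the zfs1-deficient cultures, and the difference was -0.24 ± 0.14 (SE; limma adjusted p = 0.348, and 0.0940 with the block). It passed when arrays were weighted by their spread about the strain means (difference -0.28, adjusted p = 0.0400). Those weights ran from 0.20 for zfs1-deficient culture 4 to 5.42 for zfs1-deficient culture 3. The weighted fit called 648 of 4969 probe sets higher and 627 lower. nup60 (SPCC285.13C) differed by -0.15 (adjusted p = 0.639) and nup61 (SPCC18B5.07C) by -0.013 (adjusted p = 0.973). nup124 (SPAC30D11.04C), an FG nucleoporin of the nuclear side known for the import of the Tf1 retrotransposon, had a difference of 0.066 with a 95% interval of -0.98 to 1.11, the widest of the 34 genes, and of -0.10 to 0.23 with the block.

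Among 6 inner ring genes 0 passed in either fit, and their median difference was 0.025. nup40 (SPAC19E9.01C) had the smallest p of the 6, with 10.31, 10.53, 10.39 and 10.58 in zfs1-deficient cultures 1 to 4, against 10.07, 10.40, 10.23 and 10.41 in wild-type cultures 1 to 4. It was higher in 4 of 4 pairs while the strains overlapped (difference 0.17 ± 0.11, SE; limma adjusted p = 0.405, and 0.0632 with the block). The scaffold genes nup155 (SPAC890.06), nup184 (SPAP27G11.10C) and nup186 (SPCC290.03C) differed by 0.0077, 0.071 and 0.042. The paralogues npp106 (SPCC1739.14) and nup97 (SPCC1620.11), both homologues of budding yeast Nic96, differed by -0.092 and -0.063. None of these 5 passed (adjusted p from 0.811 to 0.989).

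Among 7 outer ring genes 0 passed without the block and 1 fell with it. nup132 (SPAC1805.04), a homologue of Nup133 of the Y-shaped outer ring complex, was 9.28, 9.57, 9.33 and 9.06 in zfs1-deficient cultures 1 to 4, against 9.78, 9.79, 9.83 and 9.18 in wild-type cultures 1 to 4. Wild-type cultures 1 to 3 lay above every zfs1-deficient culture, and wild-type culture 4 lay among them. The difference was -0.33 ± 0.17 without the block and -0.33 ± 0.091 with it (SE; limma adjusted p = 0.304 and 0.0331), the most negative of the 34. Without replicate 4 of both strains and without the block, nup132 differed by -0.41 and passed (adjusted p = 0.0332), as did kap114 at 0.33 (adjusted p = 0.0326). That fit called 332 of 4960 probe sets higher and 277 lower, against 177 and 110 of 4969 with all arrays.

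nup131 (SPBP35G2.06C), the paralogue of nup132 and the other Nup133 homologue, differed by -0.071 (limma adjusted p = 0.747). The difference of nup132 was 0.26 more negative than that of nup131, and more negative in 3 of 4 numbered pairs. This too is a description of a pair chosen after its values were seen.

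nup37 (SPAC4F10.18), a beta-propeller protein of the Y complex, was 10.01, 9.91, 9.99 and 9.62 in zfs1-deficient cultures 1 to 4, against 10.05, 9.96, 10.15 and 9.97 in wild-type cultures 1 to 4. The strains overlapped, and the difference was -0.15 ± 0.11 (SE; limma adjusted p = 0.490, and 0.183 with the block). The other Y complex genes nup85 (SPBC17G9.04C), nup107 (SPBC428.01C) and nup120 (SPBC3B9.16C) differed by 0.027, 0.039 and 0.032. nup189 (SPAC1486.05), whose product is cleaved into an FG nucleoporin and an outer ring subunit, differed by 0.0096, and pom152 (SPBC29A10.07), a membrane protein of the pore, by -0.13. None of these 5 passed (adjusted p from 0.748 to 0.990).

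Without a fit, 2 of the 34 genes had all 4 zfs1-deficient arrays above all wild-type arrays, crm1 and kap114, or 5.88% against 7.81% of all probe sets. 1 gene had them all below, nup45, or 2.94% against 7.71%. In numbered pairs, 6 of the 34 were higher in 4 of 4, or 17.6% against 20.8% of all probe sets, and 9 were lower in 4 of 4, or 26.5% against 25.1%. Of these 9, 8 were nucleoporins, which make up 22 of the 34 genes. The channel, cytoplasmic side and basket held 5 of the 9 and hold 8 of the 34. This split was not tested.

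Replicate 4 was often the lowest array of its strain in these genes. In 19 of the 34 genes (55.9%) the culture numbered 4 was the lowest of its strain in both strains, against 28.4% of all probe sets. In 5 genes (14.7%) it was the highest in both, against 25.3%. These counts take in small margins: in wild type, crm1 was 10.84 in replicate 4 and 10.88 in replicate 3. Only nup124 had replicate 4 far from the other 3 arrays in both strains by Dixon's criterion. The median offset of replicate 4 from the mean of replicates 1 to 3 was -0.32 in the zfs1-deficient strain and -0.20 in wild type for the 34 genes, against -0.019 and -0.0092 for all probe sets. This rests on 1 culture per strain, was noticed in the data and has no test.

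nup124 showed it most. Its signal was 10.46, 10.57, 10.55 and 9.001 in zfs1-deficient cultures 1 to 4, and 10.45, 10.46, 10.63 and 8.79 in wild-type cultures 1 to 4. Cultures 1 to 3 were closely alike across both strains, and culture 4 was lower by 1.53 in the zfs1-deficient strain and by 1.72 in wild type. nup189 had offsets of -0.75 and -0.65, nup146 of -0.73 and -0.57, npp106 of -0.68 and -0.57 and pom152 of -0.53 and -0.65, each in the zfs1-deficient strain first and then in wild type.

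Both importin alpha genes went the other way. cut15 was 0.55 higher in replicate 4 of the zfs1-deficient strain and 0.44 higher in replicate 4 of wild type, and imp1 was 0.16 and 0.35 higher. The remaining 3 genes that were highest in replicate 4 of both strains were nucleoporins, nup40, nup97 and nup107. The related inner ring genes npp106 and nup97 thus had offsets of opposite sign in both strains. Over the 34 genes the 2 offsets correlated at r = 0.92, and at r = 0.87 without nup124. Over all probe sets the correlation was 0.65. These are correlations across genes of the same 8 arrays and describe them only.

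**Figure D3:**
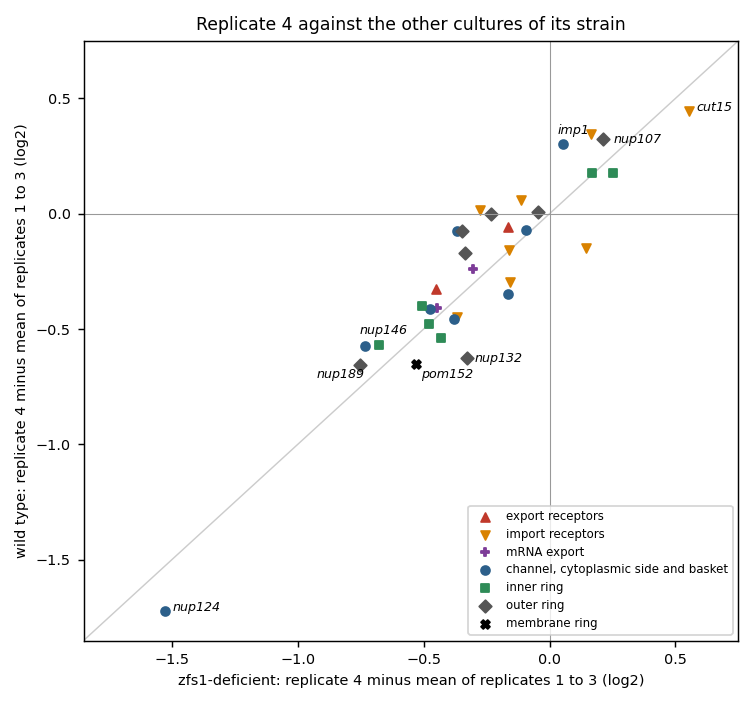
Replicate 4 minus the mean of replicates 1 to 3 on the log2 scale, in the zfs1-deficient strain (x axis) and in wild type (y axis), 1 point per gene, with symbols for the role. Points lie along the grey line of equal offsets, with nup124 at the lower left and cut15 at the upper right.

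**Figure D4:**
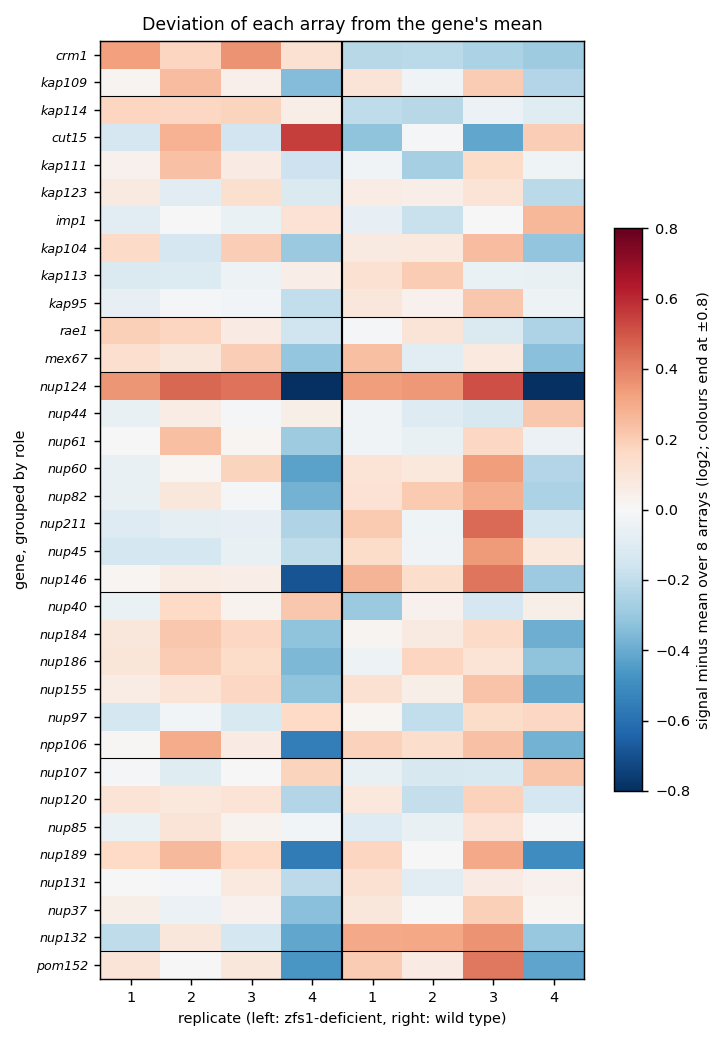
Signal of each array minus the mean of the gene over 8 arrays (colour, log2), with the 4 zfs1-deficient cultures on the left and the 4 wild-type cultures on the right. The row of crm1 changes colour between the strains, while 12 of the 22 nucleoporin rows are at their lowest in culture 4 of both strains.

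Related genes that the naming rule does not take in were read from 5 lists, and 3 of their 48 tested genes (6.25%) passed without the block, near the 5.78% of all probe sets called in either direction. Among 11 other pore-linked genes 1 rose and 1 fell. tts1 (SPBC1539.04), which shapes endoplasmic reticulum membrane and is not a nucleoporin, was 11.77, 11.84, 11.80 and 11.58 in zfs1-deficient cultures 1 to 4, against 11.22, 11.38, 11.16 and 11.21 in wild-type cultures 1 to 4. The strains did not overlap, and tts1 rose by 0.51 ± 0.078 (SE; limma adjusted p = 0.00779). gle1 (SPBC31E1.05), whose budding yeast homologue activates the RNA helicase of mRNA export at the cytoplasmic side of the pore, was 8.73, 8.61, 8.77 and 8.66 in zfs1-deficient cultures 1 to 4, against 9.23, 9.08, 9.20 and 8.95 in wild-type cultures 1 to 4. The strains did not overlap, and gle1 fell by 0.42 ± 0.10 (SE; adjusted p = 0.0463). The gle1 call held in 1 of 8 fits with an array left out, that without wild-type replicate 4, and the adjusted p ranged up to 0.146. The median of the 11 genes was -0.067.

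In the Ran cycle 0 of 7 genes passed without the block. With it mog1 rose, and 2 fell: rna1, the Ran GTPase-activating protein gene (difference -0.22; limma adjusted p = 0.164, and 0.0274 with the block), and sbp1, a Ran-binding protein gene (difference -0.12; adjusted p = 0.249, and 0.0382 with the block). mog1 (SPCC1840.01C), a Ran-binding protein, had the largest difference of the 7, at 0.35 ± 0.10 (SE, n = 4 per strain; limma adjusted p = 0.0766, and 0.0163 with the block). The Ran gene spi1 differed by 0.020 ± 0.053 (SE; adjusted p = 0.883), and the median of the list was 0.026. Of 3 tested karyopherin genes with other names, 0 passed without the block and 3 fell with it. los1 (SPBP8B7.09C), the tRNA exportin, differed by -0.32 ± 0.12 (SE; adjusted p = 0.161, and 0.0110 with the block), sal3 by -0.25 (adjusted p = 0.252, and 0.0317 with the block) and mtr10 by -0.27 (adjusted p = 0.395, and 0.0270 with the block). Their differences had the opposite sign to that of crm1.

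Of 12 other mRNA export genes 0 passed without the block and 1 fell with it, sus1 (SPBC6B1.12C), which differed by -0.40 ± 0.20 (SE, n = 4 per strain; limma adjusted p = 0.292, and 0.0153 with the block), and the median was -0.050. Of 15 nuclear envelope genes 1 rose, ish1 (SPBC365.12C), a stress-responsive protein of the envelope, by 1.55 ± 0.17 (SE; adjusted p = 0.00147), and with the block bqt4, an inner membrane anchor of telomeres, fell as well, with a difference of -0.25 (adjusted p = 0.183, and 0.0306 with the block). The median of this list was 0.081. In the blocked fit 11 of the 48 genes (22.9%) were called, 3 higher and 8 lower, near the 24.2% of all probe sets called in either direction.

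**Figure D5:**
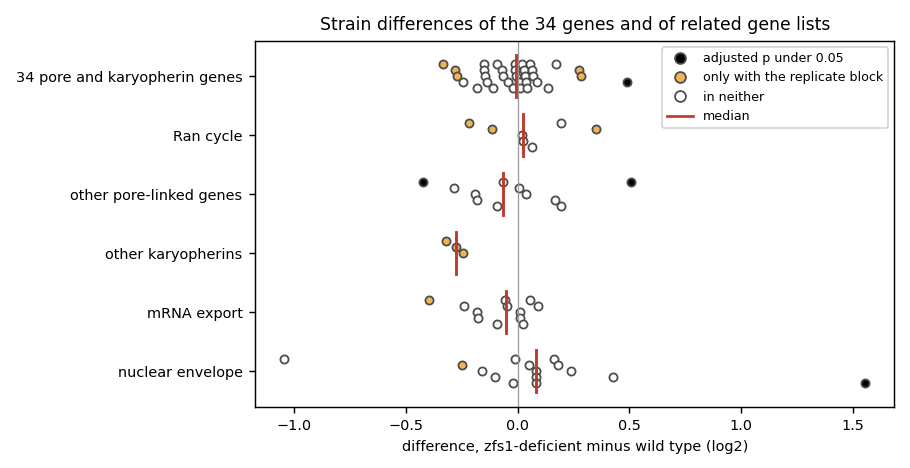
Strain difference on the log2 scale (x axis, zfs1-deficient minus wild type) of the 34 genes and of 5 lists of related genes, 1 point per gene, with the median in red. Black points passed without the replicate block and orange points only with it; ish1 lies farthest to the right at 1.55, and crm1 is the black point of the top row.

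Fewer cells of a kind and less RNA per cell cannot be told apart in these cultures. Markers of other cell states were read on the same arrays. Of 4 sporulation markers 3 rose, mug2, spo6 and isp3 (4 with the block). mug2 kept its call in 8 of 8 fits with an array left out, spo6 in 6 (adjusted p up to 0.0706) and isp3 in 1 (limma adjusted p = 0.0498 over all arrays and 0.151 at the highest). The isp3 signal was 4.04 to 6.04 in zfs1-deficient cultures, above the brightest control in culture 1 alone, and 1.33 to 3.75 in wild-type cultures, below it on every array. The summed signal of the 4 on the linear scale was 474 to 712 in zfs1-deficient cultures and 184 to 276 in wild-type cultures. Of 4 tested markers of M cells 0 passed, with a summed signal over 5 markers of 1014 to 1583 in zfs1-deficient and 896 to 1449 in wild-type cultures. The marker left untested, mfm1, had too few values, and the sum counts it only on arrays where it had one. Of 4 P cell markers 1 rose, sxa1, and 1 fell with the block; their summed signal was 3834 to 4051 in zfs1-deficient and 3233 to 3501 in wild-type cultures. That sum is mostly sxa1. The 3 other P cell markers, of which map1 had no value in zfs1-deficient culture 2, had differences below 0, and their sum was 165 to 299 in zfs1-deficient and 231 to 355 in wild-type cultures. No marker with a value on every array lay at background on all arrays, and mfm1 could not be judged in this way. The part of these markers in the differences above was not tested.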

How the data were processed

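The deposited values, 1 per probe set and array, are log10 signals that the authors obtained with the GeneChip Operating Software, per the labels. Scaling and probe summary are not given in the sources used here, and the log10 base is inferred from the values. The labels name an array of a nematode, but the probe table pairs the probe sets with fission yeast genes. Values were multiplied by 3.32193 to log2 and otherwise used as deposited. Of 5011 probe sets, 17 reporter controls were left out, and 4969 with at least 2 values per strain were tested. Probe sets were named by a probe table, updated by gene identifier through the gene table of ASM294v3: 2916 had 1 symbol, 20 several and 2058 none.

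Differences were fitted by limma 3.58.1 under R 4.3.3 (lmFit, then eBayes with a variance trend, 2-sided, Benjamini-Hochberg over all tested probe sets), and this procedure was tested on simulated data. The labels do not say what a shared replicate number means. After each strain's mean was removed, the 2 arrays sharing a number correlated at 0.37 (number 1), 0.33 (2), 0.26 (3) and 0.70 (4). Numbers 1 and 3 were not distinct: zfs1-deficient array 3 correlated at 0.41 with wild-type array 1, and zfs1-deficient array 1 at 0.25 with wild-type array 3. Each same-number value exceeded the minimum of 0.1, but so did zfs1-deficient array 3 with wild-type array 2 and array 2 with array 3, at 0.12 each. The minimum alone thus cannot establish the pairing, least of all for numbers 1 and 3. Pairing by number in the blocked fit is a choice made from the data and not from the labels. Blocked results stand beside those they change. Arrays of a strain were not copies: at most 2 probe sets had equal values on any pair. The titles call the arrays biological replicates without saying that cultures were separate, so p-values measure the spread between these samples, and the number of arrays limits the precision. The members and the lists were chosen with earlier results of these data known. Named genes are all 34 members, zfs1, list genes that passed, and the largest difference of each list. Array values are printed for members that passed in either fit and for the next 4 by p. nup124 and the other list genes given were chosen after their values were seen, as were the 3 pairs of paralogues. Figures were drawn with matplotlib 3.10.9.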

Additional observations from a re-analysis of the deposited data

Results flagged for a closer look

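Each of 34 members and 6 list genes gave 1 group of 4 arrays in each strain, or 80 groups. In 11 of them the highest or lowest array stood far from the other 3. Were the groups independent, chance would give about 1 in 20 groups, or 4 groups. They share the same arrays, so 1 deviating array can mark many genes at once. The count of 11 is therefore not a test against 4, and no share over all probe sets is given here. In 10 of the 11 groups the array that stood apart was replicate 4. In nup124 it was the lowest array in both strains, at 9.001 in the zfs1-deficient strain and 8.79 in wild type. In zfs1-deficient cultures replicate 4 was also the lowest, and apart, in kap114 (10.17), nup146 (9.70), nup120 (10.07) and nup189 (10.66). In wild-type cultures it was so in nup132 (9.18), npp106 (9.59) and kap123 (11.67). sus1 had its highest zfs1-deficient array in replicate 4, at 9.28. The exception was nup61, whose wild-type replicate 3 was high, at 10.87. Values without replicate 4 of both strains stand beside nup132 and kap114 in the results and in the settings that follow.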

How the results depend on the processing

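crm1 kept its call under all 17 planned and 4 added alternatives, with a difference between 0.45 and 0.56. zfs1 kept its call wherever it was tested, which leaves out the filter on the dimmest probe sets. The 34 genes gave 1 higher and 0 lower call under median centring, quantile normalisation, an offset of 64 on the linear scale, without the dimmest 25% of probe sets, without the variance trend, with probe sets averaged per gene, and in all 8 fits with 1 array left out, which also gave 2 to 4 calls in the 5 related lists, against 3. With the replicate number as a block 3 members were higher, 3 were lower and 11 list genes were called. With array weights these counts were 2, 3 and 14, and without replicate 4 of both strains 2, 1 and 6. Over all probe sets, the block called 563 higher and 638 lower of 4969, and array weights 648 and 627. Without replicate 4 of both strains, 332 of 4960 were called higher and 277 lower. The reported fit without the block called 177 and 110 of 4969, so calls rose over all probe sets in these fits too. The median difference of the members ranged from -0.075 without wild-type replicate 4 to 0.044 without zfs1-deficient replicate 4.

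Fits with the block that left out 1 number from both strains were added after the data were seen. Without number 2, 1 member was higher, 3 were lower and 11 list genes were called, without number 4 the counts were 2, 1 and 8, without number 3 they were 1, 0 and 5, and without number 1 they were 1, 0 and 4. Over all probe sets, 505 were called higher and 486 lower of 4959 without number 2, and 429 and 459 of 4960 without number 4. Without number 3 the calls were 383 and 391 of 4965, and without number 1 they were 277 and 204 of 4964. In these 4 fits crm1 passed in 4 (highest adjusted p = 0.0104), nup132 in 2, kap114, nup45 and nup146 in 1 each, and cut15 in 0 (adjusted p from 0.0607 to 0.0887); the highest adjusted p was 0.123 for kap114, 0.105 for nup45, 0.160 for nup132 and 0.101 for nup146. All 6 kept their sign. Of 714 member values under the alternatives, 16 passed where the reported fit did not, and 66 of the values not called had the other sign. The block changed no call of a member or named list gene other than those given. All members lay far above the reporter controls, so background does not limit these values, but 4 cultures per strain do.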
